A study of Mus musculus with 12 samples.

Results

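The genes described here belong to the growth hormone and IGF1 axis of the liver: *Ghr*, *Prlr*, *Stat5b*, *Socs2*, *Igf1*, *Igfals*, *Igfbp2* and *Igfbp4*. They were taken as a fixed list of 8 symbols, matched by Ensembl identifier to the 28030 genes of the deposited table, and all 8 were found and passed the filter on low counts. Growth hormone binds its receptor on hepatocytes, and the kinase JAK2 bound to that receptor phosphorylates STAT5, which enters the nucleus and activates genes such as *Igf1*, *Igfals* and *Socs2*. The liver is the main source of circulating IGF1, which travels in blood bound to IGF-binding proteins and to the acid-labile subunit, the product of *Igfals*. Socs2 protein acts back on the growth hormone receptor and limits signalling.

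Total RNA was sequenced from liver hepatocytes of wild-type female mice aged 12 weeks on normal chow. All mice were trained for 3 days to 16 h without food overnight and 8 h of food by day. The 4 groups of 3 libraries were pericentral (PC) and periportal (PP) hepatocytes of mice that had eaten for 4 h with 20% sucrose in their water (fed), and the same cells of mice then deprived of food and sucrose for 24 h (fasted). PC hepatocytes surround the central vein and PP hepatocytes the portal tract, and the labels name digitonin, a detergent that is used to remove one of these zones. The strain was not given in the sources used here, and whether libraries of equal number share a mouse is not stated, so the p-values reflect only how far these libraries differ.

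Libraries held 16245846 to 27449412 estimated counts. The 9 pericentral markers summed to 13640 to 24238 CPM (counts scaled to a common library size) in PC libraries and 373 to 1993 CPM in PP libraries. The 9 periportal markers separated less in sum, at 2937 to 3594 CPM in fed PC, 7659 to 9376 in fasted PC, 8571 to 10667 in fed PP and 15717 to 21296 in fasted PP libraries, so fasted PC overlapped fed PP. One marker, *Pck1*, rose with fasting in both zones. It held 258, 80.5 and 45.1 CPM in fed PC and 4382, 4672 and 4516 CPM in fasted PC libraries. Every other gene of the list lay lower in each fasted PC library than in each fed PP library. All 12 libraries expressed the hepatocyte markers at 91823 CPM or more in sum. The first library of the fasted PC group stood apart in zone markers. It held 172 CPM of *Glul*, glutamine synthetase of the central vein, where its fellow replicates held 3639 and 2353 CPM, and 579 CPM of the periportal gene *Hal*, where they held 69.9 and 108.6 CPM. Macrophage markers (11 genes) summed to 0.927 to 11.5 CPM, endothelial markers (10 genes) to 4.10 to 32.0 CPM and stellate cell markers (12 genes) to 1.30 to 17.5 CPM. Erythroid markers (2 globin genes) summed to 232.5 CPM in the second fasted PC library, 76.6 in the third fasted PP library and 19.8 in the third fed PC library, and to 5.8 CPM or less in the other libraries; their part in the results was not tested, and calls without the libraries at 232.5 and 76.6 CPM are given with each gene. None of these lists had a marker at 0 in every library. Cholangiocyte markers (6 genes) moved with the zone in sum, at 16.6 to 28.2 CPM in PC and 36.2 to 47.8 CPM in PP libraries, and their part in the zone results was not tested. The sum was mostly *Krt7*, *Spp1* and *Sox9*, while *Krt19* and *Epcam* stood at 0.729 and 0.547 CPM or less in every library. Of the 4 tested, *Sox9* was called lower in PC in fed and fasted mice, *Spp1* in fasted mice, and *Krt7* and *Krt23* in neither. The fasting state was visible in *Cpt1a*, the gate for fatty acids into mitochondria, which rose by 1.19 ± 0.14 (SE) on the log2 scale in PC and by 1.12 ± 0.14 in PP (edgeR adjusted p = 0.000186 and 0.00034), and in *Fasn*, fatty acid synthase, with values of -5.12 ± 0.51 and -4.26 ± 0.49.

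*Ghr* was higher in PC than in PP hepatocytes of fed and of fasted mice, and *Igf1* was lower in PC in fasted mice. *Socs2* and *Stat5b* rose with fasting in both zones, and *Igfals* fell with fasting in PP. Calls were made with edgeR at a Benjamini-Hochberg adjusted p under 0.05 over 12086 genes. Between PC and PP hepatocytes of fed mice, 1 of the 8 genes was higher in PC and 0 were lower, where 4.72% of all tested genes were called, 2.24% higher and 2.47% lower. In fasted mice 1 was higher and 1 lower, against 6.4% of all genes, 3.35% higher and 3.05% lower. With fasting 2 genes rose and 0 fell in PC hepatocytes, against 21.4% of all genes, 11.1% up and 10.2% down, so the count in PC is near the share of all genes. In PP hepatocytes 2 rose and 1 fell, against 17.9% of all genes, 8.39% up and 9.5% down. The median log2 fold change of the 8 genes was -0.14 and 0.02 for the zone in fed and fasted mice and 0.21 and 0.22 for fasting in PC and PP, beside medians over all genes of -0.01, 0, 0 and 0.

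The groups did not overlap, meaning that all 3 libraries of one lay above all 3 of the other, in 3 of the 8 genes for the zone in fed mice, 2 higher and 1 lower in PC. All tested genes gave 26%, 12.9% higher and 13.1% lower. In fasted mice 4 genes did not overlap, 3 higher and 1 lower, against 22% of all genes, 11.4% higher and 10.6% lower. With fasting in PC 5 did not overlap, 3 higher and 2 lower, against 41.7% of all genes, 21.5% higher and 20.2% lower. With fasting in PP 3 did not overlap, 2 higher and 1 lower, against 34.6% of all genes, 16.8% higher and 17.8% lower. For the difference in the fasting response between the zones (the interaction), 0 of the 8 genes and 0% of all genes were called by edgeR, with 1 of 8 and 465 of 12086 at an unadjusted p under 0.05. DESeq2 called 11 genes for the interaction, of which 0 were among the 8.

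**Figure D1:**
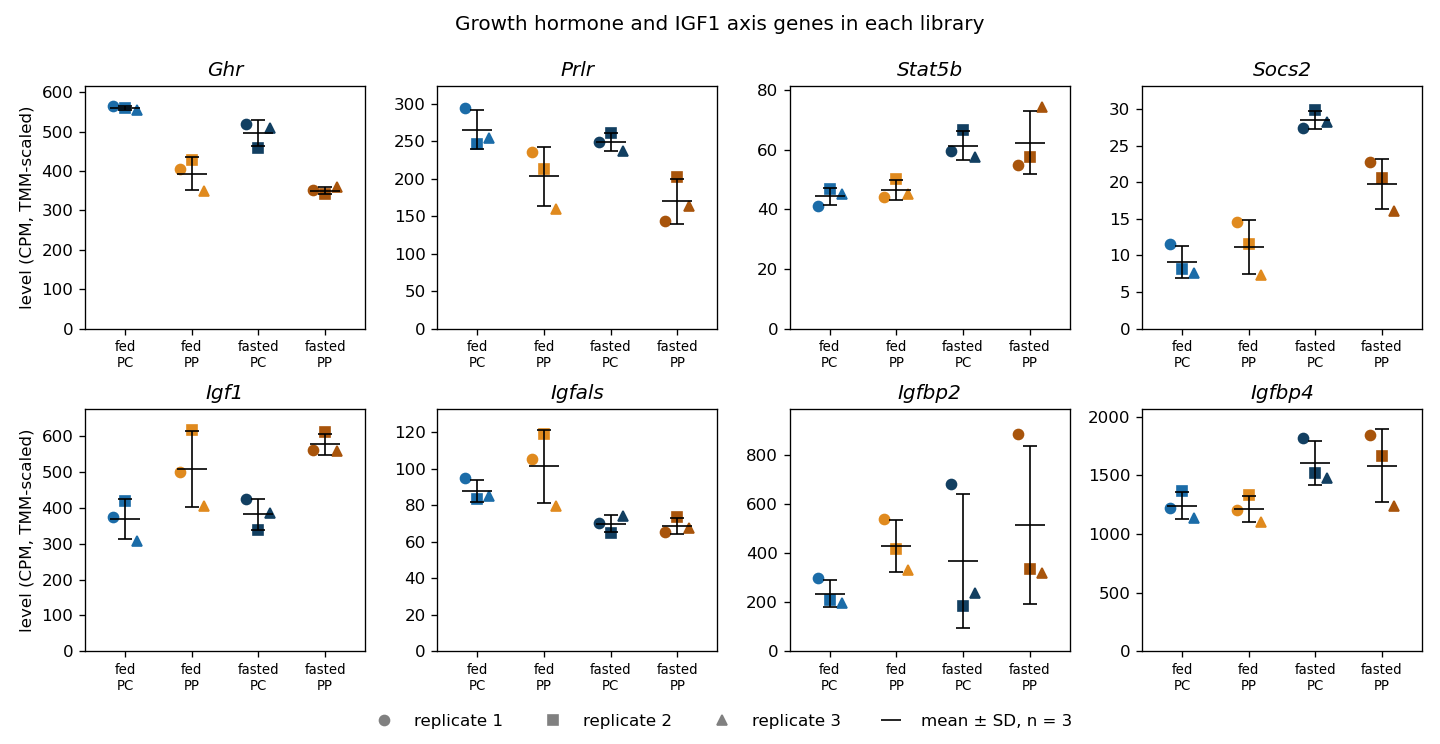
Level of each gene in every library, in CPM with TMM-scaled library sizes (y axis), for the 4 groups (x axis). Symbols stand for replicates 1 to 3, and black bars show the mean ± SD of 3 libraries. *Ghr* is separated by zone in fed and in fasted mice, *Socs2* is separated by feeding, and *Igfbp2* is highest in replicate 1 of every group.

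*Ghr*, the growth hormone receptor, was more abundant in PC than in PP hepatocytes whether the mice were fed or fasted. The gene lies on chromosome 15 from 3317760 to 3583492 on the minus strand of GRCm38 (mm10). Fed PC libraries held 564, 560.4 and 554 CPM in replicates 1 to 3, and fed PP libraries 405, 428 and 348 CPM. Fasted PC libraries held 520.2, 458 and 509.9 CPM, and fasted PP libraries 350.5, 340.3 and 359.5 CPM. Every PC library lay above every PP library, fed or fasted. The log2 fold change of PC over PP was 0.51 ± 0.10 (SE) in fed mice, a 1.42-fold difference (edgeR adjusted p = 0.0135), and 0.50 ± 0.10 in fasted mice (edgeR adjusted p = 0.013). With fasting, *Ghr* had log2 fold changes of -0.17 ± 0.10 in each zone, not called (edgeR adjusted p = 0.263 in PC and 0.298 in PP, 95% intervals -0.40 to 0.05 and -0.40 to 0.06). In PC the fasted libraries all lay below the fed ones, and in PP they overlapped. The call in fed mice ended when fed PC replicate 1 (0.50, edgeR adjusted p = 0.0546) or 2 (0.52, 0.0544) was left out, and the call in fasted mice when fasted PC replicate 3 was (0.48, 0.0554) or when only the fasted groups entered the fit (0.49, 0.0638). Without the library that stood apart in zone markers the value in fasted mice was 0.46 (edgeR adjusted p = 0.0308), and without the second fasted PC or the third fasted PP library, those high in globin, it was 0.56 (0.0232) and 0.51 (0.0395).

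*Prlr*, the prolactin receptor, belongs to the same cytokine receptor family as *Ghr* and also signals through JAK2 and STAT5. It lies on the plus strand of chromosome 15 from 10177238 to 10349180. An overlapping gene model on the same strand, Gm21973, held at most 4 counts in any library. *Prlr* stood at 295, 246 and 254 CPM in fed PC and at 236, 213 and 159.8 CPM in fed PP libraries. It stood at 249, 260.3 and 237 CPM in fasted PC and at 143, 203 and 163 CPM in fasted PP libraries. As for *Ghr*, PC libraries lay above PP libraries within each feeding state, without overlap. Neither difference was called: the log2 fold change of PC over PP was 0.39 ± 0.16 in fed mice (edgeR adjusted p = 0.226) and 0.55 ± 0.16 in fasted mice (0.0594, 95% interval 0.21 to 0.89). The latter was called by DESeq2 (0.54, adjusted p = 0.0184), with no filter on low counts (0.56, 0.043), and by edgeR when fed PP replicate 3 (0.54, 0.0355) or the second fasted PP library (0.69, 0.0317) was left out. It was not called without the second fasted PC (0.52, edgeR adjusted p = 0.182) or the third fasted PP library (0.51, 0.173), those high in globin. Fasting gave *Prlr* log2 fold changes of -0.09 ± 0.16 in PC and -0.26 ± 0.16 in PP, neither called (edgeR adjusted p = 0.715 and 0.288).

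*Stat5b*, the transcription factor that carries most of the growth hormone signal in liver, rose with fasting in both zones. It lies on the minus strand of chromosome 11 from 100780731 to 100850724, and its close paralog *Stat5a* could share reads with it. Fed PC libraries held 41.2, 46.9 and 45.0 CPM and fasted PC libraries 59.6, 66.7 and 57.5 CPM. Fed PP libraries held 44.2, 50.3 and 45.1 CPM and fasted PP libraries 54.9, 57.6 and 74.4 CPM. In each zone all fasted libraries lay above all fed libraries. The log2 fold change was 0.47 ± 0.12 in PC (edgeR adjusted p = 0.0166) and 0.42 ± 0.12 in PP (0.0303). The zones did not separate: PC over PP was -0.07 ± 0.12 in fed and -0.02 ± 0.12 in fasted mice (edgeR adjusted p = 0.861 and 0.947), with 95% intervals of -0.33 to 0.20 and -0.29 to 0.24. The paralog *Stat5a* stood at 16.2 ± 0.963 CPM (SD, n = 3) in fed PC, 10.98 ± 1.52 in fed PP, 13.3 ± 1.42 in fasted PC and 12.3 ± 4.73 in fasted PP, and was not called in any comparison. The PC call of *Stat5b* was lost when the first (0.42, edgeR adjusted p = 0.0645) or the third (0.48, 0.0512) fed PC library or the second fasted one (0.40, 0.0697) was left out. Without the library that stood apart the PC value was 0.47 (0.0385). The PP call was lost when the first (0.40, 0.0775) or the third (0.40, 0.0935) fed PP library or the third fasted one (0.29, 0.0916) was left out and when only PP libraries entered the fit (0.44, 0.0829).

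*Socs2*, the feedback inhibitor of growth hormone signalling, had the largest fasting response of the 8 genes in these comparisons. It lies on the minus strand of chromosome 10 from 95385362 to 95417180. Fed PC libraries held 11.6, 8.14 and 7.59 CPM and fasted PC libraries 27.3, 29.9 and 28.2 CPM. Fed PP libraries held 14.6, 11.5 and 7.28 CPM and fasted PP libraries 22.7, 20.6 and 16.0 CPM. Fasted libraries lay above fed libraries in both zones. The gene rose 3.12-fold in PC, or 1.64 ± 0.23 on the log2 scale (edgeR adjusted p = 0.000585), and 1.77-fold in PP, or 0.83 ± 0.23 (0.0269). The rise in PC was called under all 17 alternatives tried, with values of 1.53 to 1.86, and was 1.65 without the library that stood apart in zone markers (edgeR adjusted p = 0.00179) and 1.61 without the fasted PC library high in globin (0.00302). The PP value was 0.97 without the fasted PP library high in globin (0.0231). The rise in PP was no longer called when the second (0.86, edgeR adjusted p = 0.0681) or the third (0.60, 0.0735) fed PP library, or the first (0.74, 0.0879) or second (0.80, 0.0705) fasted one, was left out and when only PP libraries entered the fit (0.84, 0.0548).

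The *Socs2* means differed in order between the feeding states. In fed mice PC stood at 9.11 ± 2.16 CPM and PP at 11.1 ± 3.66 CPM, with overlapping libraries (log2 fold change -0.29 ± 0.23, edgeR adjusted p = 0.62). In fasted mice PC stood at 28.5 ± 1.27 CPM and PP at 19.8 ± 3.40 CPM, without overlap (0.53 ± 0.23, edgeR adjusted p = 0.224). The interaction, fasting in PC minus fasting in PP, was 0.81 ± 0.32 on the log2 scale with an unadjusted edgeR p of 0.0269 and an adjusted p of 0.997, so a difference in response between the zones was not established. *Socs2* rested on 140 to 531 counts a library, fewer than any other gene of the 8.

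**Figure D2:**
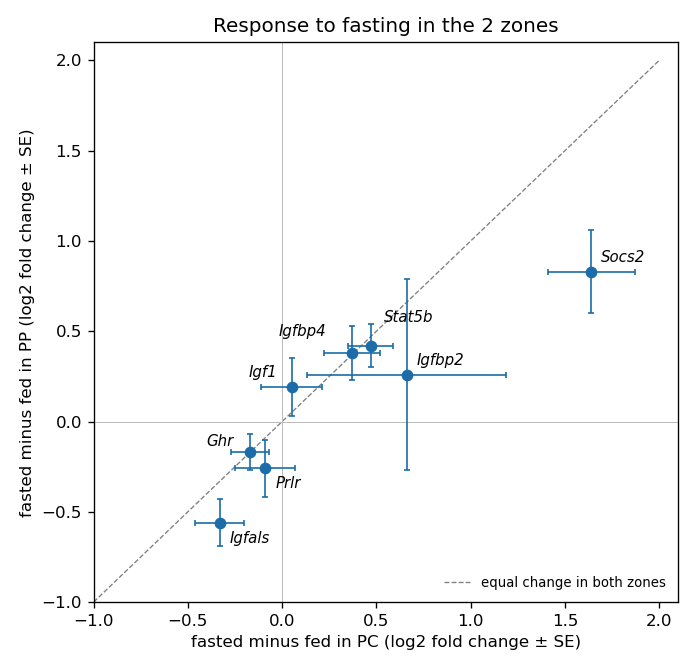
Log2 fold change of fasted over fed in PC hepatocytes (x axis) and in PP hepatocytes (y axis) for the 8 genes; bars are standard errors and the dashed line marks equal change in both zones. *Socs2* lies at 1.64 in PC and 0.83 in PP, *Stat5b* and *Igfbp4* lie near the line above 0, and *Igfals* lies below 0 on both axes.

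*Igf1*, the growth factor that carries much of growth hormone's action on body growth, was higher in PP than in PC hepatocytes, the reverse of its upstream receptor. It lies on the plus strand of chromosome 10 from 87858265 to 87937042. Fed PC libraries held 376, 420.3 and 309 CPM and fed PP libraries 501, 618 and 406 CPM. Fasted PC libraries held 424, 338 and 385 CPM and fasted PP libraries 563, 612 and 560.2 CPM. The zones overlapped in fed mice, through the second PC and the third PP library, and did not overlap in fasted mice. The log2 fold change of PC over PP was -0.60 ± 0.16 in fasted mice (edgeR adjusted p = 0.0458) and -0.47 ± 0.16 in fed mice, where it was not called (0.14). The call in fasted mice was marginal and ended in 8 of the 12 fits that left out a library. These were the first (-0.60, edgeR adjusted p = 0.0696) and second (-0.60, 0.0567) of fed PC, the first of fed PP (-0.61, 0.0552), the second (-0.51, 0.19) and the third (-0.61, 0.116) of fasted PC, and the first (-0.64, 0.0827), second (-0.56, 0.125) and the third (-0.63, 0.0912) of fasted PP. Without the first fasted PC library, which stood apart, it was kept (-0.68, edgeR adjusted p = 0.0387).

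With fasting *Igf1* was not called in either zone. The log2 fold change was 0.05 ± 0.16 in PC (edgeR adjusted p = 0.845, 95% interval -0.29 to 0.40) and 0.19 ± 0.16 in PP (0.467, -0.16 to 0.53). Means were 368 ± 56.3 CPM in fed PC, 382 ± 42.9 in fasted PC, 508 ± 106 in fed PP and 578 ± 29.3 in fasted PP. The 11 macrophage markers, of cells that also transcribe *Igf1*, summed to 0.927 to 11.5 CPM over the libraries, and their part in the *Igf1* level was not tested. In bulk RNA, fewer cells of a type and less RNA per cell cannot be told apart.

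*Igfals*, whose product holds IGF1 and a binding protein in a long-lived complex in blood, fell with fasting in PP hepatocytes. It lies on the plus strand of chromosome 17 from 24865997 to 24882010. Fed PP libraries held 105.4, 119 and 79.6 CPM and fasted PP libraries 65.1, 73.6 and 67.5 CPM. Fed PC libraries held 94.8, 83.1 and 85.2 CPM and fasted PC libraries 70.5, 64.9 and 74.3 CPM. All fasted libraries lay below all fed libraries of their zone, and every fasted library of either zone lay below every fed library. The log2 fold change was -0.56 ± 0.13 in PP (edgeR adjusted p = 0.0121), a 1.48-fold lower level, and -0.33 ± 0.13 in PC, not called (0.101). The interaction was 0.23 ± 0.19 (edgeR adjusted p = 0.997), so the zones were not shown to differ in this response. The zones themselves gave -0.21 ± 0.13 in fed and 0.02 ± 0.13 in fasted mice (edgeR adjusted p = 0.497 and 0.951). The PP call was lost when the second fed PP library (-0.42, edgeR adjusted p = 0.0666) or the first fasted one (-0.50, 0.0543) was left out and when only PP libraries entered the fit (-0.55, 0.0524). Without the fasted PP library high in globin the PP value was -0.54 (0.0403). The PC value was -0.27 without the fasted PC library high in globin (edgeR adjusted p = 0.263). In PC the difference was called when the third fed PP library was left out (-0.35, edgeR adjusted p = 0.0275) and when only PC libraries entered the fit (-0.35, 0.0271).

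**Figure D3:**
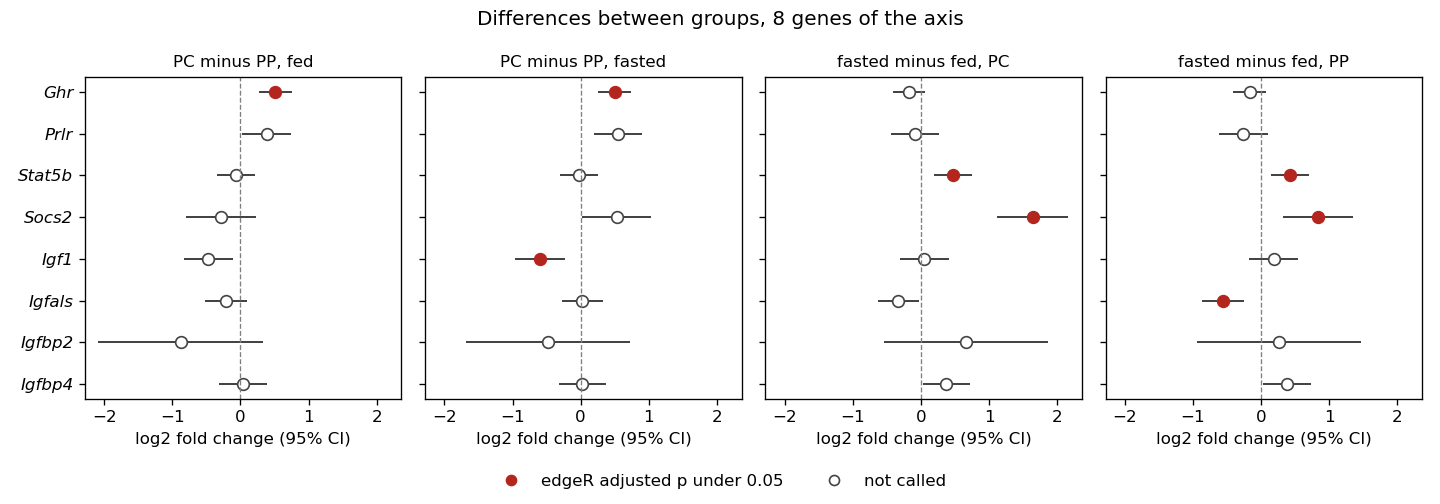
Log2 fold change (x axis) with its 95% confidence interval for the 8 genes (y axis) in 4 comparisons; filled points were called by edgeR at an adjusted p under 0.05. *Ghr* is above 0 in both zone panels and *Igf1* below 0, *Stat5b* and *Socs2* are above 0 in both fasting panels, and the widest intervals are those of *Igfbp2*.

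STAT5 dimers are known to bind the palindrome TTCNNNGAA, so the 250 bases before each RefSeq start site (GRCm38.p6) were searched for it; the pattern reads the same on both strands. Of the 8 genes, 7 had a promoter entry, with 14 start sites in all, and *Socs2* had none. The palindrome occurred before 3 of the 14 start sites, 2 of *Igfals* and 1 of *Prlr*, and before 7.02% of all 32851 start sites in the table. By gene it occurred in 2 of the 7, against 8.13% of 27025 genes. The 7 genes had more start sites per gene than the table as a whole, so the shares by gene are not like for like. These are the stretches of 29 bases that hold it, with the palindrome in capitals, all on the plus strand and outside annotated exons.
*Igfals*, chr17:24877598-24877626, 236 bases before a start site: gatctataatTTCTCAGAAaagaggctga
*Igfals*, chr17:24878163-24878191, 58 bases before another start site: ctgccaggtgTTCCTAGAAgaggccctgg
*Prlr*, chr15:10223786-10223814, 110 bases before a start site: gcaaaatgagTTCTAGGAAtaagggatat
The 3 palindromes differ in their middle letters. A match describes letters only, and the counts per gene do not tell which start site was used. Whether a match bears on the response of its gene to fasting was not tested.

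The binding proteins *Igfbp4* and *Igfbp2* bind IGF1 and limit its access to its receptor. *Igfbp4*, on the plus strand of chromosome 11 from 99041244 to 99054392, stood at 1217, 1369 and 1138 CPM in fed PC and 1819, 1519 and 1477 CPM in fasted PC libraries. In PP it stood at 1204, 1331 and 1105 CPM in fed and 1846, 1661 and 1236 CPM in fasted libraries. Fasted libraries lay above fed ones in PC, and in PP fasted replicate 3 fell within the fed range. The log2 fold change with fasting was 0.37 ± 0.15 in PC and 0.38 ± 0.15 in PP, neither called (edgeR adjusted p = 0.11 and 0.109); without fasted PP replicate 3 the PP value was 0.54 and was called (0.0256). Without the second fasted PC library, high in globin, the PC value was 0.41 and was not called (edgeR adjusted p = 0.147). The zones differed by 0.03 ± 0.15 in fed and 0.02 ± 0.15 in fasted mice, with 95% intervals of -0.30 to 0.37 and -0.31 to 0.36.

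*Igfbp2*, on the plus strand of chromosome 1 from 72824503 to 72852474, had the largest standard errors of the 8 genes in these comparisons. Fed PC libraries held 296, 209 and 194 CPM and fed PP libraries 538, 415 and 329.7 CPM. Fasted PC libraries held 681, 183 and 238 CPM and fasted PP libraries 883, 336 and 318 CPM. Replicate 1 was the highest in each of the 4 groups, and in fasted mice it stood far above the other libraries of its group. In fed mice every PP library lay above every PC library, at a log2 fold change of PC over PP of -0.87 ± 0.53, not called (edgeR adjusted p = 0.49). In fasted mice the value was -0.48 ± 0.53 (0.702). It was -1.28 without fasted PC replicate 1 (0.117), the library that also stood apart in *Glul* and *Hal*, and 0.15 without fasted PP replicate 1 (0.921). Without the second fasted PC or the third fasted PP library, those high in globin, it was -0.15 (edgeR adjusted p = 0.942) and -0.73 (0.565). Fasting gave 0.66 ± 0.53 in PC and 0.26 ± 0.53 in PP (edgeR adjusted p = 0.422 and 0.786). Without the first fasted replicate of the zone these became -0.16 and -0.37 (edgeR adjusted p = 0.821 and 0.697), so the sign of each difference rested on 1 library.

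Per length of annotated exon, the mean level was highest for *Igfbp4* in all 4 groups, at 275 to 363 CPM per kb, followed by *Igfbp2* at 126 to 277 CPM per kb. *Ghr* stood at 38.7 to 61.8 CPM per kb, *Igf1* at 37.2 to 58.4 and *Igfals* at 21.7 to 32.0. *Prlr* at 11.1 to 17.3 and *Stat5b* at 8.01 to 11.2 were lower, and *Socs2* was lowest at 0.955 to 2.99. The order of *Ghr* and *Igf1* turned with the zone: *Ghr* was the higher in PC, at 61.8 against 37.2 CPM per kb in fed mice, and *Igf1* the higher in PP, at 51.3 against 43.5 CPM per kb. Exon length was the union over all annotated transcripts, which is longer than any single transcript of *Prlr* or *Igf1* may be, so these levels are approximate.

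Among 15 other genes of growth hormone and prolactin receptor signalling, from *Jak2* to the repressor *Bcl6*, 14 were tested. Between the zones 0 were called in fed or fasted mice, against 4.72% and 6.4% of all genes. With fasting 1 rose in PC and 2 in PP, and 0 fell. Over all genes 11.1% rose and 10.2% fell in PC, and 8.39% rose and 9.5% fell in PP. With 1 library left out, the zone gave 0 to 1 higher and 0 to 1 lower in fed mice and 0 to 1 lower in fasted mice. Fasting then gave 0 to 2 that fell in PC and 1 to 2 that rose in PP. The median log2 fold changes of the 14 genes were -0.07 and -0.06 for the zone in fed and fasted mice and 0.11 and 0.17 for fasting in PC and PP. *Stat3*, a sister transcription factor of STAT5 that responds to interleukin 6, was at 64.4 ± 3.75 CPM in fed and 92.7 ± 0.320 CPM in fasted PC. It rose by 0.52 ± 0.12 on the log2 scale in PC (edgeR adjusted p = 0.00889) and by 0.44 ± 0.12 in PP (0.0244). The PP call of *Stat3* was lost when any fed PP library, first (0.42, edgeR adjusted p = 0.0617), second (0.47, 0.0524) or the third (0.46, 0.0554), or the third fasted PP library (0.30, 0.0669) was left out, and when only PP libraries entered the fit (0.45, 0.0804). *Ptpn6*, a phosphatase that dampens cytokine receptor signals, rose by 0.59 ± 0.14 in PP (edgeR adjusted p = 0.0116).

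*Cish* is another SOCS family gene that STAT5 is known to induce, and it was singled out after its values were seen. It did not share the fasting sign of *Socs2*. It stood at 16.5, 7.44 and 12.7 CPM in fed PC, 43.0, 23.1 and 17.9 CPM in fed PP, 5.30, 6.86 and 7.93 CPM in fasted PC and 16.8, 15.2 and 15.5 CPM in fasted PP libraries. Its fasting values were negative, -0.87 ± 0.34 in PC and -0.82 ± 0.33 in PP, where those of *Socs2* were positive, but they were not called (edgeR adjusted p = 0.0986 and 0.108). PP libraries lay above PC libraries in both feeding states, at PC over PP values of -1.20 ± 0.33 in fed and -1.24 ± 0.34 in fasted mice (edgeR adjusted p = 0.0677 and 0.058). DESeq2 called *Cish* for the zone in fed (-1.19, adjusted p = 0.00556) and fasted mice (-1.25, 0.00339) and for fasting in PC (-0.87, 0.037). With 1 library left out, edgeR called the zone in fed mice in the fit lacking the third fed PP library (-1.42, adjusted p = 0.0357). It called the zone in fasted mice lacking the second fed PC (-1.25, 0.0349), the first fed PP (-1.25, 0.0141) or the third fed PP library (-1.25, 0.0357), and with only fasted groups in the fit (-1.26, 0.0102). Fasting in PC was called lacking the second fed PC (-1.14, 0.0371) or the first fed PP library (-0.89, 0.0298). *Socs3*, of the same family, had the fasting sign of *Socs2*, at 1.33 ± 0.70 in PC and 0.69 ± 0.68 in PP. Neither value was called (edgeR adjusted p = 0.212 and 0.54), and *Socs1* did not pass the filter on low counts.

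**Figure D4:**
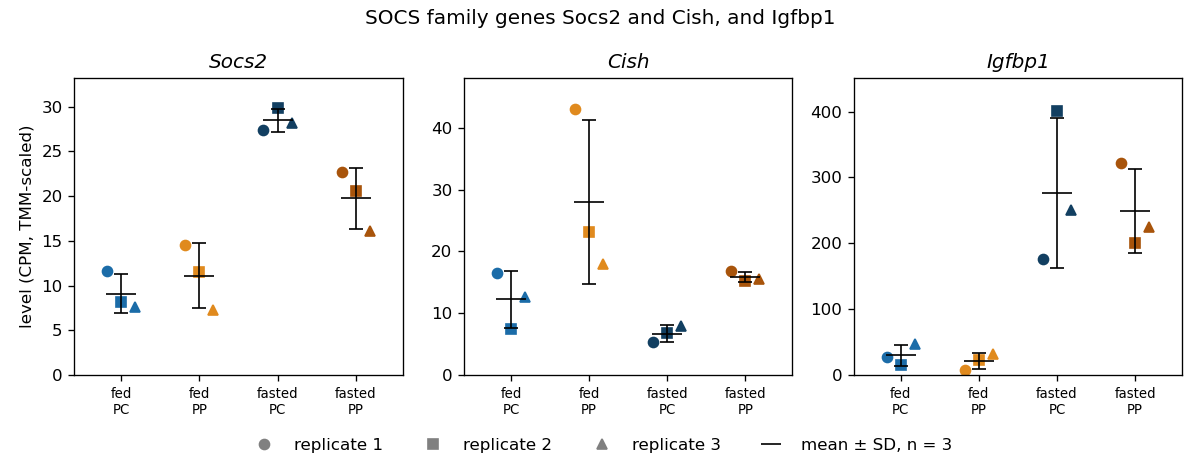
Level in every library of *Socs2*, *Cish* and *Igfbp1*, in CPM with TMM-scaled library sizes (y axis), for the 4 groups (x axis); symbols stand for replicates and bars for the mean ± SD of 3 libraries. Fasted libraries lie above fed ones for *Socs2* and *Igfbp1*, and the fasted PC libraries of *Cish*, at 5.30 to 7.93 CPM, include the lowest of its values.

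Among 16 other genes of the IGF system, 9 were tested; 0 differed between the zones in fed or fasted mice, and 3 rose and 0 fell with fasting in each zone. Of all tested genes, 4.72% and 6.4% were called for the zone in fed and fasted mice, 11.1% rose and 10.2% fell with fasting in PC, and 8.39% rose and 9.5% fell in PP. Leaving out any 1 library left 3 that rose in each zone, with 0 to 1 that fell. Their medians were 0.03, -0.01, -0.21 and 0.03 in the same order. The same 3 rose in both: *Igfbp1*, *Irs2* and *Insr*, the last named although it falls outside the rule of 2 genes per direction. *Igfbp1*, a binding protein repressed by insulin, stood at 27.6, 14.9 and 47.1 CPM in fed PC and 177, 401 and 251 CPM in fasted PC libraries, and at 8.19, 22.8 and 31.6 CPM in fed PP and 322, 200.3 and 225 CPM in fasted PP libraries. Every fasted library lay above every fed one. Its log2 fold change was 3.21 ± 0.57 in PC (edgeR adjusted p = 0.00405) and 3.58 ± 0.58 in PP (0.00303). *Irs2*, an adaptor of the insulin and IGF1 receptors, rose by 3.43 ± 0.40 in PC and 2.83 ± 0.39 in PP (edgeR adjusted p = 0.000329 and 0.00104), and *Insr*, the insulin receptor, by 0.67 ± 0.11 and 0.59 ± 0.11 (0.000969 and 0.00252). *Igf1r*, the IGF1 receptor itself, was at 0.936 CPM or less in the mean of every group and was not called. *Igf2*, *Igfbp3*, *Igfbp6*, *Pappa*, *Pappa2*, *Stc1* and *Stc2* did not pass the filter on low counts.

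Among 8156 tested genes averaging 5 CPM or more, those whose log2 CPM followed each of the 8 most closely over the 12 libraries were listed by Pearson's r, as a description. The libraries share 4 groups, so a common zone or fasting difference raises r. *Ghr* was closest to *Rgn* (r = 0.958), the pericentral gene for regucalcin, and then to *Dhrs1* (0.957) and *Cyb5a* (0.943). *Igf1* was closest to *Hsd11b1* (0.916), which reactivates glucocorticoids, *Cp*, ceruloplasmin (0.912), and *Cadm1* (0.909). *Socs2* was closest to *Imp3* (0.984) and *Map1lc3b* (0.978), and *Stat5b* to *Garem1* and *Paxip1* (0.948 each). *Igfals* was closest to *Samhd1* (0.931) and *Dnajb9*, a chaperone of the endoplasmic reticulum (0.929), *Prlr* to *Srr*, serine racemase (0.948), and *Igfbp4* to *Sat2* (0.965). *Igfbp2* was closest to *Dynlt1b* (0.953) and *Serpina1a* (0.937), both of which have close paralogs and uncertain counts.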

How the data were processed

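Per the labels' protocols, libraries came from the NEBNext Ultra kit, which keeps no strand information. The deposited values are estimated counts per gene. The submitters' processing notes name kallisto 0.46.0 and mm10; no source used here gives the annotation or how transcripts were summed. In each library 27.9% to 32.7% of values were fractional; all were rounded, which moved a library's total by at most 120.8 counts. Of 28030 identifiers, 27566 matched a symbol. Positions are from GENCODE M21 (GRCm38).

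Genes were kept with filterByExpr, scaled by TMM, and fitted with edgeR 4.0.16 (quasi-likelihood, robust; R 4.3.3) with 1 mean for each of 4 groups over all 12 libraries and 8 residual degrees of freedom. Standard errors are the unshrunk log2 fold change over the square root of the test statistic. DESeq2 1.42.0 and the settings in the closing section were alternatives. No pair of libraries agreed within sampling noise (chi-square per degree of freedom 23.9 to 79.8). The fit was tested on simulated data. A gene that was not called is not shown to be unchanged. List counts with a library left out were added after seeing the data. The genes and lists were chosen with earlier results of these data known. Beyond the 8 genes, up to 2 called genes per direction, list and comparison were named, and the 3 genes most alike to each, without predicted models.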

Additional observations from a re-analysis of the deposited data

How the results depend on the processing

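Each result was recomputed with DESeq2, with RLE scaling, with no filter on low counts, with only the groups compared, with the replicate number as a block, and with each of the 12 libraries left out. The number of genes called for the zone in fed mice was 929 in DESeq2, and 292 to 701 when 1 library was left out. For the zone in fasted mice it was 376 with only the groups compared and 386 to 1005 with 1 library left out. It was 1593 to 2618 for fasting in PC and 1405 to 2414 for fasting in PP with 1 library left out. For the interaction it was 11 in DESeq2, 1 with no filter and 0 to 2 with 1 library left out. Of the 8 genes, leaving out 1 library gave 0 to 1 called for the zone in fed mice, 0 to 3 for the zone in fasted mice, 1 to 3 for fasting in each zone and 0 for the interaction. With only the groups compared, 1 was called for the zone in fasted mice and 0 for fasting in PP.

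With the replicate number as a block, 625, 796, 2696, 2223 and 0 genes were called for the zone in fed and fasted mice, fasting in PC and PP and the interaction, and 1, 2, 2, 3 and 0 of the 8. With this block the *Igfbp4* interaction was 0, against -0.01. Deviations from the group means correlated at r from -0.12 to 0.27 over 18 pairs of libraries of equal number, over 0.1 in 3. A fed and a fasted library cannot share a mouse, so only pairs of PC and PP within a feeding state bear on pairing. These gave r of 0.27, 0.02 and 0.15 for replicates 1 to 3 in fed mice and 0.19, -0.12 and 0.09 in fasted mice. All 3 pairs over 0.1 were among them. In 11 of the 18 a library correlated best with its own number, among them replicates 1 and 3 but not 2 of both states. The own number was also best in pairs of a fed and a fasted library, among them replicate 1 of fed PC and fasted PC. The check therefore cannot tell whether libraries share a mouse, and the main fit did not pair the libraries.

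The signs that turned belonged to values that were not called, and each turned when a library was left out. The ranges were -0.03 to 0.12 for *Igfbp4* and -0.09 to 0.01 for *Stat5b* for the zone in fed mice. For the zone in fasted mice they were -0.03 to 0.08 for *Igfals*, -1.28 to 0.15 for *Igfbp2*, -0.14 to 0.13 for *Igfbp4* and -0.13 to 0.11 for *Stat5b*. For fasting they were -0.06 to 0.14 for *Igf1* and -0.16 to 0.98 for *Igfbp2* in PC, and -0.37 to 0.52 for *Igfbp2* in PP. For the interaction they were -0.10 to 0.05 for *Ghr*, -0.42 to 1.01 for *Igfbp2*, -0.19 to 0.07 for *Igfbp4* and -0.08 to 0.16 for *Stat5b*. The cause of these changes was not tested. The interaction needs all 4 groups and has no fit with fewer. *Socs2*, at 140 to 531 counts a library, was the least deeply counted of the 8.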

Other observations

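Liver genes that differ between the sexes under control of the growth hormone pulse pattern were counted in these female hepatocytes. Of 13 female-biased genes, 12 were tested; in fed mice 1 was higher and 3 were lower in PC, in fasted mice 4 were higher and 2 lower, and with fasting 1 rose and 1 fell in PC and 2 rose and 1 fell in PP. Of all tested genes 2.24% were higher and 2.47% lower in PC in fed mice, 3.35% and 3.05% in fasted mice, 11.1% rose and 10.2% fell with fasting in PC, and 8.39% rose and 9.5% fell in PP. With 1 library left out, the female-biased counts ranged from 1 to 3 higher and 1 to 4 lower in fed mice and from 1 to 4 higher and 1 to 3 lower in fasted mice. *Cyp3a41a*, higher in PC of fasted mice, lost its call in 12 of 17 alternatives. The call of *A1bg* for fasting in PC was lost in 5 of 17. The medians were -0.26, -0.08, 0.04 and -0.25. *Cux2*, a repressor of male-biased genes, stood at 32.6, 36.6 and 28.9 CPM in fed PP and 56.6, 80.5 and 52.0 CPM in fasted PP libraries, which is 0.95 ± 0.16 in log2 units (edgeR adjusted p = 0.00167). In fasted mice it was lower in PC than in PP, at -1.13 ± 0.16 (edgeR adjusted p = 0.00128). *Tox*, an HMG-box protein, rose by 1.42 ± 0.17 (log2) in PC and 1.33 ± 0.18 in PP (edgeR adjusted p = 0.000224 and 0.000506). *A1bg* fell from 69.2, 119.8 and 38.0 CPM in fed PP to 5.62, 7.25 and 3.56 CPM in fasted PP libraries, at -3.79 ± 0.48 (edgeR adjusted p = 0.000721).

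Of 11 male-biased genes, all tested, 4 were higher and 1 lower in PC of fed mice, 2 were higher in PC of fasted mice, and 3 fell and 0 rose with fasting in each zone, beside the same shares of all genes. These counts rested partly on single libraries: with 1 left out they ranged from 2 to 4 higher and 0 to 2 lower in fed mice, from 2 to 5 higher in fasted mice (5 without the first fasted PC library), and from 1 to 3 that fell in PC and 1 to 4 in PP. The fall of *Hsd3b5* in PC lost its call in 9 of 17 alternatives and that of *Slco1a1* in 5, both among them without the second fed PC library (-1.33, edgeR adjusted p = 0.258, and -1.77, 0.0891). The zone call of *Hsd3b5* in fed mice was lost in 5 of 17. That of *Slco1a1*, 4.1 ± 0.62 higher in PC on the log2 scale (edgeR adjusted p = 0.00494), was kept in all 17. *Hsd3b5* stood at 4.07 CPM or less and *Ugt2b38* at 4.27 CPM or less in every library, so the calls of both rested on low counts. *Ugt2b38* lost its call in 5 of 17 for the zone in fed mice and in 5 of 17 for fasting in PP, where the values without the second fed PP library were -2.29 (edgeR adjusted p = 0.158) and -1.50 (0.204), and -2.67 with the replicate number as a block for fasting in PP (0.0529). Their medians were 1.27, 2.1, -0.38 and -0.60. *Cyp7b1*, an oxysterol hydroxylase, stood at 22.2, 34.7 and 24.4 CPM in fasted PC and 5.37, 6.72 and 2.64 CPM in fasted PP libraries, 2.46 ± 0.31 higher in PC on the log2 scale (edgeR adjusted p = 0.000939). *Nudt7*, a coenzyme A hydrolase, fell from 114.9, 209 and 157 CPM in fed PP to 39.1, 65.7 and 45.1 CPM in fasted PP libraries, at -1.68 ± 0.22 (edgeR adjusted p = 0.000456). Several genes of both lists, among them those of the Cyp2b, Cyp2d, Cyp3a, Mup and Ugt2b families, have near-identical copies and uncertain counts.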
